A study of Mus musculus with 20 samples.

Results

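The chemokine receptors Ccr2, Ccr4, Ccr6, Ccr7, Ccr9, Ccr10, Cxcr3, Cxcr4 and Cxcr6 were followed in RNA-seq of sorted mouse CD4+ T cells by taking the rows with these symbols. All 9 were present among the 16784 genes of the mesenteric lymph node (mLN) table and the 16740 genes of the table for pooled spleen and peripheral lymph nodes (pLNs), and all 9 passed the filter of at least 1 count in total. Each table was analysed on its own. Both held the same 4 groups, with 3 libraries a group in mLN and 2 a group in spleen and pLNs: Foxp3-expressing (CD4+Foxp3+) Treg cells or CD4+Foxp3- T cells of WT mice, and their counterparts of Tet2/3fl/fl Foxp3Cre mice (DKO). All mice were C57BL/6 and 14 weeks old. The Cre recombinase was a YFP-Cre fusion driven by Foxp3, the WT animals carried Foxp3Cre without the floxed alleles, and cells were sorted as YFP+ or YFP-. Tet2 and Tet3 deletion was therefore aimed at Foxp3-expressing cells, while CD4+Foxp3- cells of DKO mice are a mixture that can include cells which once expressed Foxp3, and with it Cre, and then lost it. The Tet2 and Tet3 alleles of these CD4+Foxp3- cells were not checked here. The DKO mice behind the spleen and pLN libraries were littermates that gave both cell types and differed in the severity of splenomegaly, and the labels do not tell which replicate is which.

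Chemokine receptors are G protein-coupled receptors with which leukocytes follow gradients of secreted chemokines. The set that a T cell carries decides which tissue it can enter: naive and central memory cells use Ccr7 to enter and stay in lymph nodes, gut-homing cells use Ccr9, skin-homing cells use Ccr4 and Ccr10, and activated cells gain receptors for ligands made in inflamed tissue, such as Cxcr3, Cxcr6 and Ccr2. Treg cells use the same receptors to reach the sites where they suppress responses. TET enzymes oxidise methylated cytosine, mostly at CpG dinucleotides, as a step towards its removal.

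The libraries held 9998478 to 15449158 counts in mLN and 13525932 to 15253141 in spleen and pLNs. Levels of 1 gene are given below as CPM, counts scaled to the total of each library, after TMM scaling, which adjusts for the composition of the libraries, and 3 counts in a library corresponded to 0.172 to 0.299 CPM. Foxp3, the defining transcript of the sort, lay at 299 to 326 CPM in WT and 277 to 329 CPM in DKO Treg cells of mLN and at or below 2.75 CPM in every CD4+Foxp3- library. The range in spleen and pLNs was 153 to 165 CPM in WT Treg cells, 235 to 419 CPM in DKO Treg cells and below 1 CPM in CD4+Foxp3- cells. Reads were counted over whole genes, so Tet2 and Tet3 counts include exons outside the deletion and do not check the genotype: in mLN Treg cells Tet3 lay at 69.0 to 86.5 CPM in WT and 48.4 to 73.3 CPM in DKO, and Tet2 at 10.4 to 10.8 and 7.69 to 12.8 CPM. Treg cells of spleen and pLNs held Tet3 at 30.6 to 31.0 CPM in WT and 38.1 to 61.0 CPM in DKO, and Tet2 at 1.11 to 2.08 and 2.05 to 8.01 CPM, so that Tet3 was higher in both DKO libraries. In mLN the DKO libraries labelled replicate 1 stood apart for Ccr2, Ccr6 and Cxcr6 in Treg cells and for Ccr6 and Cxcr4 in CD4+Foxp3- cells. The mLN DKO CD4+Foxp3- replicate 2 stood apart for Ccr4 and Cxcr3. In spleen and pLNs the 2 DKO CD4+Foxp3- libraries lay far from each other for Ccr2, Ccr7, Ccr10, Cxcr3, Cxcr4 and Cxcr6.

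Summed CPM of CD8 and NK, myeloid and B cell markers was higher in every DKO than in every WT Treg library of mLN. Single markers did not all rise. By the test described below, 2 of 7 CD8 and NK, 4 of 14 myeloid and 4 of 10 B cell markers were called higher in DKO. Called lower were 1, 0 and 1 in the same order, where 8.5% of all genes were called up and 3.43% down. The 7 CD8 and NK markers summed to 24.7 to 31.9 CPM in WT, with Klra8 and Klri2 at 0, and to 84.0 to 165 CPM in DKO. The 14 myeloid markers summed to 22.4 to 26.8 CPM in WT, with Itgax, Adgre1, Cd14 and Clec9a at 0, and to 46.0 to 107 CPM in DKO, with Clec9a at 0. The 10 B cell markers went from 31.7 to 40.4 CPM (Pax5 and Cr2 at 0) to 42.1 to 107 CPM. The 6 plasma cell markers summed to 119 to 123 CPM in WT (Tnfrsf17 at 0) and to 119.5, 619.8 and 110.2 CPM in DKO replicates 1 to 3. Only DKO replicate 2 exceeded the WT libraries in this sum. In CD4+Foxp3- cells of mLN the CD8 and NK sums were 31.4 to 35.5 CPM in WT (Klra8 at 0) and 47.4 to 143 CPM in DKO, and the myeloid sums 15.7 to 17.3 (Csf1r, Cd14, Clec9a and Siglech at 0) and 14.8 to 53.0 CPM, which overlapped. The 8 CD4 T cell markers summed to 5563 to 6091 CPM in WT and 4976 to 5811 CPM in DKO Treg cells of mLN. The 7 Treg markers summed to 2292 to 2421 and 1602 to 1818 CPM in the same cells. The part of other cells in the receptor results was not tested. In sorted bulk cells, fewer cells that carry a receptor and less of its RNA per cell cannot be told apart.

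Levels of different receptors were compared per transcript length, as the deposited TPM (mean ± SD, n = 3 in mLN and n = 2 in spleen and pLNs). In WT Treg cells of mLN, Ccr7 was the most abundant of the 9 at 338 ± 37.3 TPM, followed by Ccr4 at 107 ± 9.92. Cxcr3, Ccr2, Cxcr6, Ccr6, Cxcr4 and Ccr9 lay close together between 42.9 and 59.6 TPM, and Ccr10 was at 0.315 ± 0.0981 TPM. In WT Treg cells of spleen and pLNs Ccr7 again led at 278 ± 3.03 TPM, with Cxcr3 next at 201 ± 2.32 and Ccr9 and Ccr10 lowest at 2.71 ± 0.226 and 2.74 ± 0.140. In the CD4+Foxp3- cells of the same WT tissue Ccr7, Cxcr3 and Cxcr6 stood at 462 ± 28.4, 255 ± 47.6 and 223 ± 61.6 TPM. The tables were sequenced and normalised apart, so levels are not compared between tissues by a test.

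The comparison of DKO with WT Treg cells asked which receptors differed where Tet2 and Tet3 deletion was aimed at the cells that express Foxp3. The paper reports inflammatory disease and activated T cells in such mice. Loss of Tet2 and Tet3 within the cells and effects of the inflamed mouse cannot be told apart here. In mLN, Ccr9 had the largest fold change, a fall, Ccr7 fell too and Cxcr4 rose. A gene was called where edgeR's quasi-likelihood test gave p no higher than 0.05 after Benjamini-Hochberg adjustment over all genes tested, and a fold change of 1.5 or more. By this rule 3 of the 9 receptors were called in mLN, 1 up and 2 down, where 11.9% of all genes were called, 8.5% up and 3.43% down. For spleen and pLNs the count was 0 of the 9, against 1.74% of all genes. There 5 of the 9 had an unadjusted p below 0.05, as did 20.4% of all genes, and DESeq2 called 1, Ccr10. The median log2 fold change of the 9 was -0.54 in mLN and -0.82 in spleen and pLNs, beside 0.00 and 0.02 over all genes tested. In CD4+Foxp3- cells 2 of the 9 were called in mLN, Ccr4 up and Ccr9 down, where 3.43% of all genes were called (3.12% up and 0.304% down), and 0 of the 9 in spleen and pLNs, where 0.819% were. In the latter, 4 of the 9 had an unadjusted p below 0.05, as did 12.9% of all genes, and DESeq2 called 1, Ccr4.

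**Figure D1:**
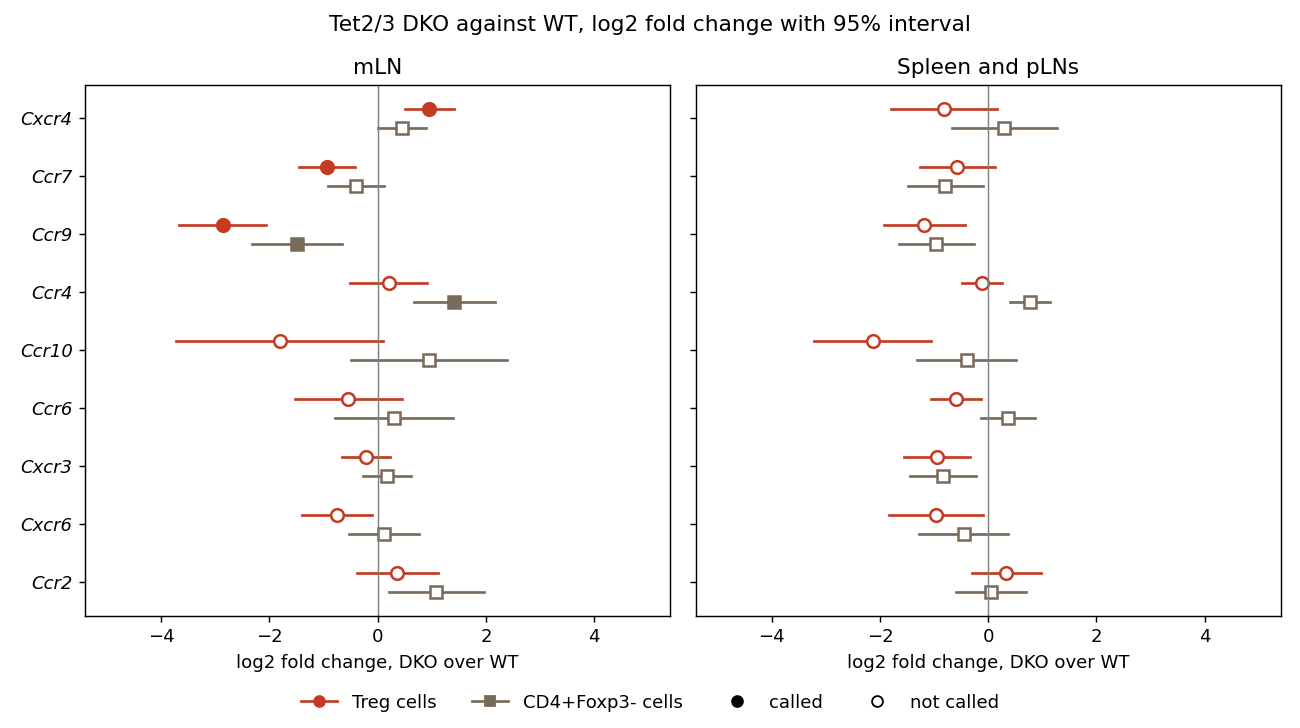
The log2 fold change of DKO over WT is plotted for each receptor, with its 95% confidence interval from the edgeR fit, in Treg cells (circles) and CD4+Foxp3- cells (squares) of mLN (left) and of spleen and pLNs (right). Filled symbols were called: Cxcr4, Ccr7 and Ccr9 in mLN Treg cells, and Ccr4 and Ccr9 in mLN CD4+Foxp3- cells.

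The comparison of Treg with CD4+Foxp3- cells asked which receptors mark Treg cells in each tissue and genotype. In WT mLN, Ccr2, Ccr4, Ccr6 and Ccr9 were higher and Ccr7 was lower in Treg cells, 5 of the 9, where 10.1% of all genes were called. In DKO mLN 5 of the 9 were called as well, with Ccr2, Ccr4 and Ccr6 higher and Ccr7 and Ccr10 lower, where 11.2% of all genes were called. For WT spleen and pLNs 4 of the 9 were called, Ccr4 and Ccr6 higher and Ccr9 and Cxcr6 lower in Treg cells, where 4% of all genes were called. In the DKO cells of the same tissue Ccr6 was higher and Ccr9, Ccr10 and Cxcr6 were lower, 4 of the 9, where 3.77% of all genes were called. Ccr6 was higher in Treg cells in all 4 of these comparisons. The members' median log2 fold change in WT was 0.57 in mLN and -0.41 in spleen and pLNs, beside 0.00 over all genes in each.

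**Figure D2:**
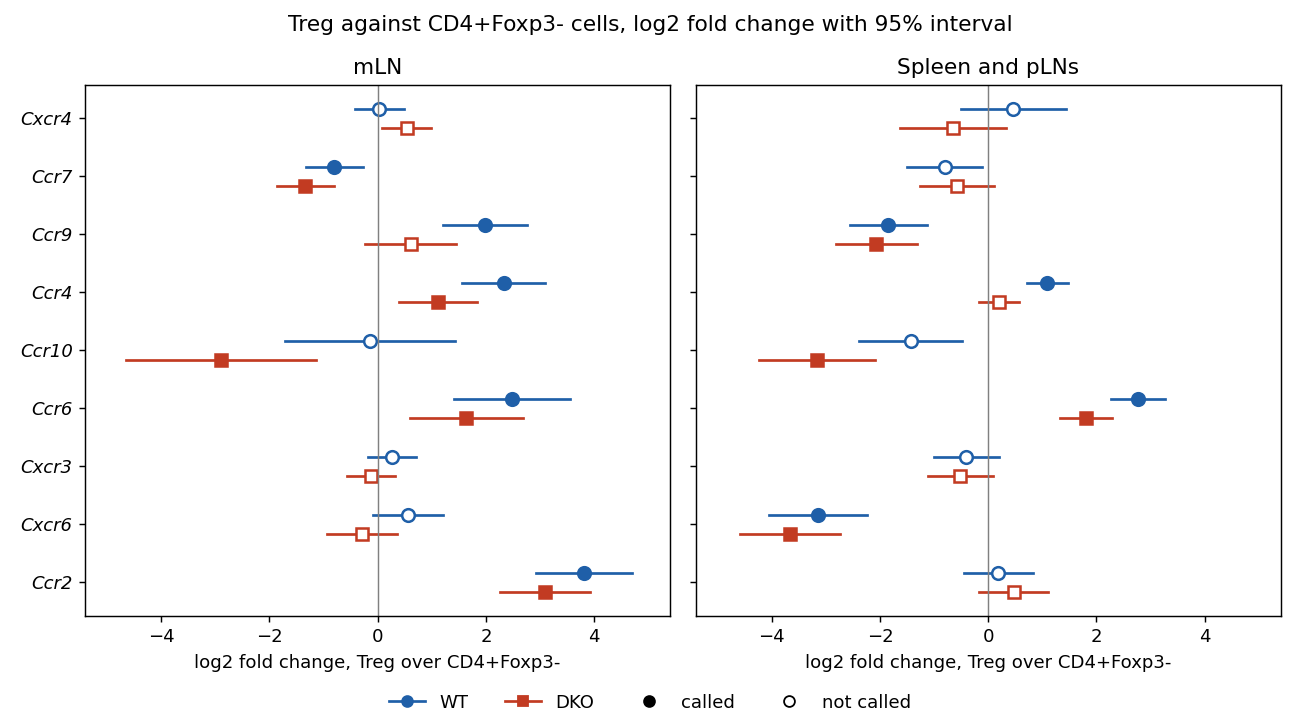
The log2 fold change of Treg over CD4+Foxp3- cells is plotted for each receptor with its 95% confidence interval, in WT (circles) and DKO (squares) mice, for mLN (left) and spleen and pLNs (right). Filled symbols were called. Ccr9 lies at 1.99 in WT mLN and at -1.84 in WT spleen and pLNs.

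Whether the difference between DKO and WT itself differed between Treg and CD4+Foxp3- cells was tested by the interaction term, for which an adjusted p of at most 0.05 was called with no fold minimum. 0 of the 9 receptors were called in mLN, where 0.28% of all genes were called, and 0 of the 9 in spleen and pLNs, where 0.00611% were. DESeq2 called 0 in each tissue. An unadjusted p below 0.05 was reached by 3 receptors in mLN, Ccr4 (-1.21 ± 0.48 (SE), adjusted p = 0.359), Ccr9 (-1.37 ± 0.52 (SE), adjusted p = 0.342) and Ccr10 (-2.75 ± 1.11 (SE), adjusted p = 0.373). The 3 that reached it in spleen and pLNs were Ccr4 (-0.89 ± 0.24 (SE), adjusted p = 0.651), Ccr6 (-0.96 ± 0.31 (SE), adjusted p = 0.897) and Ccr10 (-1.73 ± 0.65 (SE), adjusted p = 0.902). Over all genes an unadjusted p below 0.05 was reached by 10.9% in mLN and 5.53% in spleen and pLNs. The log2 values above are the change in Treg cells minus the change in CD4+Foxp3- cells. A receptor called in Treg cells and not in CD4+Foxp3- cells was thus not shown to differ between them. Without the mLN DKO CD4+Foxp3- replicate 1 the interaction of Ccr4 reached an adjusted p of 0.0399. Without replicate 2 of that group Ccr9 reached 0.0281 and Cxcr3 was called too, and without replicate 2 of the same cells of spleen and pLNs Ccr4 reached 0.0152 and Cxcr4 was called too. Leaving out both DKO libraries of the same number in spleen and pLNs left 1 library in each DKO group, so calls from it are not counted.

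Ccr9, the receptor for Ccl25 that guides T cells to the small intestine, showed the largest fold change between DKO and WT in mLN. The gene lies at chr9:123587557-123691089 on the plus strand of mm9 (GENCODE M1), on the chromosome that also holds Ccr2, Ccr4 and Cxcr6, so that 4 of the 9 share chromosome 9. In mLN Treg cells it measured 95.8, 115 and 99.0 CPM in the WT libraries and 16.9, 7.62 and 18.1 CPM in the DKO libraries. Every DKO library lay far below every WT library, a 7.28-fold difference (log2 fold change -2.86 ± 0.38 (SE), adjusted p = 0.000389). The fall was called in every alternative run, with log2 fold changes of -3.08 to -2.56 when 1 library at a time was left out. In CD4+Foxp3- cells Ccr9 measured 22.7, 30.7 and 24.3 CPM in WT, against 16.1, 4.08 and 7.95 CPM in DKO, again with no overlap (log2 fold change -1.49 ± 0.38 (SE), adjusted p = 0.0486). That call was close to the threshold: its adjusted p ran from 0.00133 to 0.174 over the alternatives, and it was lost when any 1 of the 12 libraries was left out except DKO Treg replicate 2 and DKO CD4+Foxp3- replicate 1. The values without 1 library of the compared groups were 0.126, 0.174 and 0.129 without WT replicates 1, 2 and 3, and 0.072 and 0.107 without DKO replicates 2 and 3. Leaving out a Treg library, which belongs to neither group compared, gave 0.0543 to 0.0859 in the cases that lost the call. It was also lost with DESeq2 size factors (0.0504), filterByExpr (0.0601), the replicate number as a block (0.0527), a robust prior (0.127) and only these 2 groups in the fit (0.171).

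Between the cell types, Ccr9 was 3.97-fold higher in Treg than in CD4+Foxp3- cells of WT mLN (log2 fold change 1.99 ± 0.36 (SE), adjusted p = 0.00231). In DKO mLN the difference was 0.61 ± 0.39 (SE) (adjusted p = 0.322), and with the replicate number as a block within genotype it was 0.68 and called (adjusted p = 0.0337). It was also called, at 1.23, without the DKO CD4+Foxp3- replicate 1 (adjusted p = 0.0271). The order of the cell types was the opposite in spleen and pLNs. Ccr9 measured 8.53 and 7.73 CPM in WT Treg cells, 4.41 and 2.73 in DKO Treg cells, 36.5 and 21.9 in WT CD4+Foxp3- cells and 11.0 and 19.0 in DKO CD4+Foxp3- cells. All 4 groups stood apart from each other there, and Treg cells were lower than CD4+Foxp3- cells in WT (log2 fold change -1.84 ± 0.33 (SE), adjusted p = 0.00666) and in DKO (-2.06 ± 0.34 (SE), adjusted p = 0.00482). Both calls rested on few libraries: that in WT was lost without WT Treg replicate 1 or 2 (adjusted p = 0.127 and 0.158) or CD4+Foxp3- replicate 1 (0.156), and that in DKO without either DKO Treg library (0.0581 and 0.0626). With the replicate number as a block within genotype both were lost as well (0.0837 in WT and 0.0751 in DKO), and that in DKO with only the 2 groups in the fit (0.0594). The lower DKO values of spleen and pLNs did not pass the test in Treg cells (-1.18 ± 0.34 (SE), adjusted p = 0.0918, 95% interval -1.93 to -0.43) or in CD4+Foxp3- cells (-0.96 ± 0.32 (SE), adjusted p = 0.196). The former was called with only the 2 groups in the fit (0.0322) and without DKO CD4+Foxp3- replicate 1 (0.0127) or 2 (0.0164), and the latter without replicate 2 of that group (-1.40, 0.0078).

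Cxcr4, the receptor for Cxcl12 that holds cells in bone marrow and places germinal centre cells in the dark zone, was the receptor that rose in DKO Treg cells of mLN. The gene lies at chr1:130484776-130488870 on the minus strand of mm9. It measured 44.5, 42.7 and 42.1 CPM in WT, against 92.9, 82.4 and 75.3 CPM in DKO Treg cells. The WT libraries were nearly identical and every DKO library was higher, a 1.94-fold difference (log2 fold change 0.96 ± 0.21 (SE), adjusted p = 0.00706). This rise was called in every alternative run (0.87 to 1.02 on leaving out 1 library). In mLN CD4+Foxp3- cells it measured 41.7, 43.3 and 41.6 CPM in WT, against 32.8, 68.4 and 71.7 CPM in DKO. DKO replicate 1 lay below the WT libraries and the other DKO libraries above them, and the difference was 0.45 ± 0.21 (SE), adjusted p = 0.27. Without that library it was 0.73 and called (adjusted p = 0.000307). Treg and CD4+Foxp3- cells of WT mLN hardly differed (0.03 ± 0.21 (SE), 95% interval -0.43 to 0.48). In DKO mLN the difference was 0.53 ± 0.21 (SE), adjusted p = 0.0954, and it was called without the CD4+Foxp3- replicate 2 (0.65, 0.0287) or 3 (0.72, 0.0477). Without replicate 1, the one that stood apart, it was 0.23 (adjusted p = 0.129).

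The Treg cells of spleen and pLNs held Cxcr4 at 131 and 98.0 CPM in WT mice and at 76.6 and 53.4 CPM in DKO mice. Both DKO libraries lay below both WT libraries, the opposite of mLN, and the difference did not pass the test (-0.82 ± 0.45 (SE), adjusted p = 0.334, 95% interval -1.79 to 0.16). It was called without either DKO CD4+Foxp3- library (0.016 and 0.0201 without replicates 1 and 2), although these libraries belong to neither group, and with only the 2 groups in the fit (0.0341). CD4+Foxp3- cells measured 98.1 and 67.8 CPM in WT mice, against 162 and 41.5 CPM in DKO mice. Here the DKO libraries lay on either side of the WT libraries, and the direction turned on which was used: -1.003 without replicate 1 and 0.97 (called, adjusted p = 0.0128) without replicate 2. The same held for Treg against CD4+Foxp3- cells of DKO mice, with 0.65 without replicate 1 and -1.32 (called, 0.00295) without replicate 2, beside -0.65 ± 0.45 (SE), adjusted p = 0.602 with both. WT Treg and CD4+Foxp3- cells of this tissue differed by 0.47 ± 0.45 (SE), adjusted p = 0.801.

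**Figure D3:**
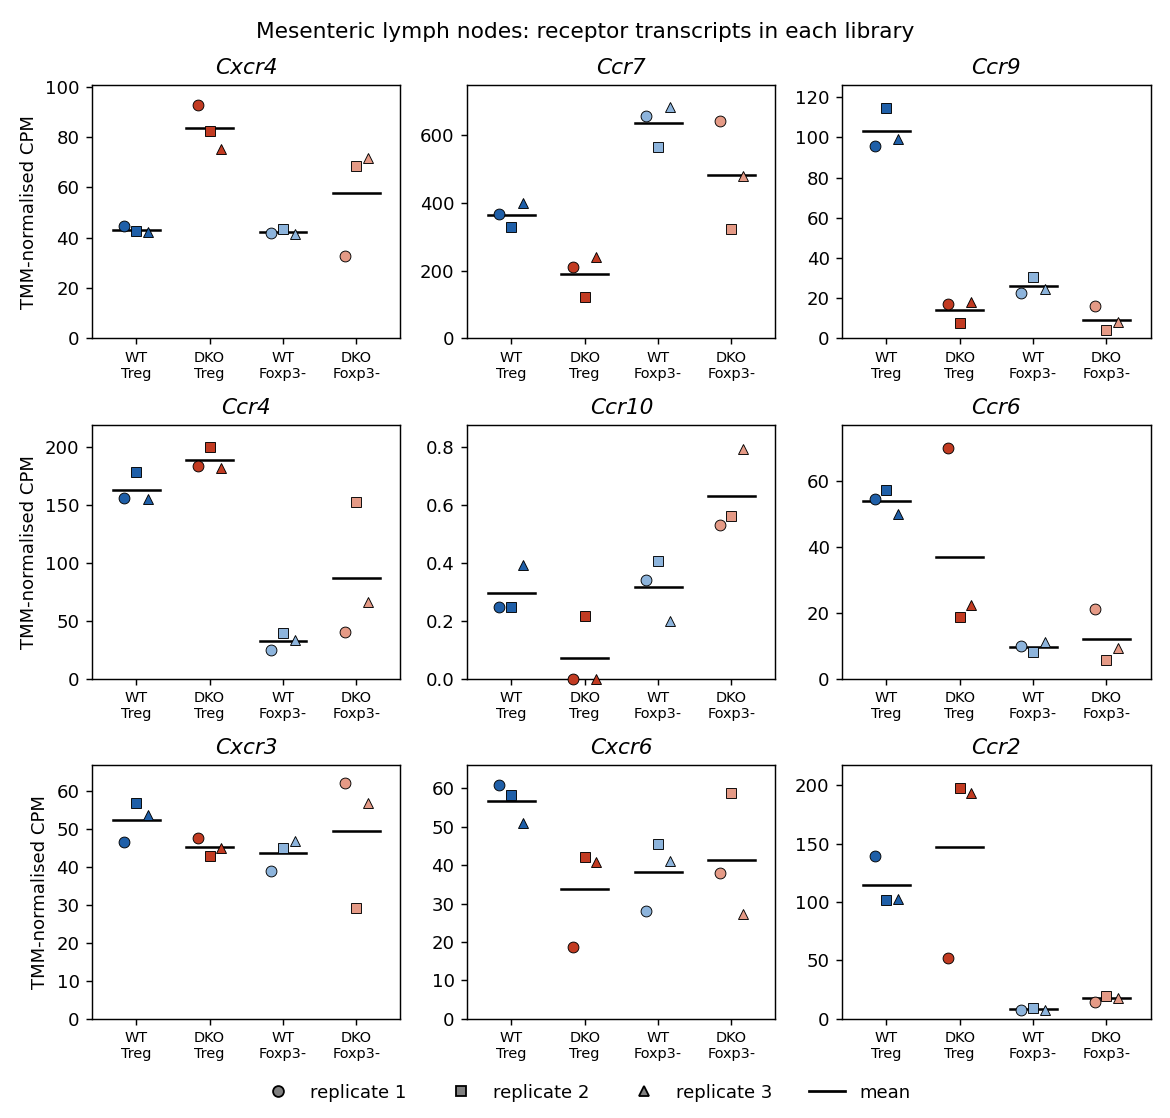
TMM-normalised CPM of each receptor is plotted for every mLN library by group, on linear axes from 0 that differ between panels, with marker shapes for replicate numbers and bars for group means (n = 3). Ccr9 and Ccr7 lie lower and Cxcr4 higher in all 3 DKO Treg libraries than in the WT Treg libraries, and DKO replicate 1 (circles) stands apart for Ccr2, Ccr6 and Cxcr6 in Treg cells.

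Because TET enzymes act on CpG dinucleotides, the 250 bases before the RefSeq starts of Ccr9 and Cxcr4 are shown, as the called receptors of mLN Treg cells that moved the furthest in each direction. The 250-base windows of the RefSeq table (GRCm38.p6) were placed on mm9 by exact match, each at 1 position of its chromosome. The Ccr9 window, on the plus strand, lies in an intron of the GENCODE M1 gene model, since that model starts further upstream, and the Cxcr4 window, on the minus strand, lies upstream of its gene. Capitals mark CG, which reads the same on both strands. No DNA methylation was measured in the files used here.
Ccr9 chr9:123676079-123676328: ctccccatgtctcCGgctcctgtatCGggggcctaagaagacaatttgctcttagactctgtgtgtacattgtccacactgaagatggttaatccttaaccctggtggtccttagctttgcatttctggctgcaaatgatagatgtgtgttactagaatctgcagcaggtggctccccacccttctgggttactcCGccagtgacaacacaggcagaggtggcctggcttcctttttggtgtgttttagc
Cxcr4 chr1:130488877-130489126: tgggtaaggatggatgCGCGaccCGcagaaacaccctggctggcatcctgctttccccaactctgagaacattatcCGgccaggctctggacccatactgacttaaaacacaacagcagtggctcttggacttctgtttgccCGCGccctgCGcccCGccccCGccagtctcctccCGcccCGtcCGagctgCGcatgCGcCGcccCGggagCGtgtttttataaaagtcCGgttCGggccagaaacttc
The Cxcr4 window held 19 CG dinucleotides, a number reached by 19.7% of the 32851 windows of the same length, whose median was 6. The Ccr9 window held 3, reached by 71% of windows, and Ccr4, Cxcr3 and Cxcr6 also held 3. The Ccr2 window held 1, and the windows of Ccr6 held 1 and 7. Windows were found for 7 of the 9 receptors, without Ccr7 and Ccr10.

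Ccr7, the receptor for Ccl19 and Ccl21 that brings T cells into lymph nodes and keeps them in the T cell zone, was the most abundant receptor of the set and lies at chr11:99005510-99016391 on the minus strand. In mLN Treg cells it measured 367, 330.0 and 399 CPM in WT, against 212, 122 and 239.6 CPM in DKO. The groups did not overlap, and DKO was 1.91-fold lower (log2 fold change -0.94 ± 0.24 (SE), adjusted p = 0.0171). The call was lost by a small margin without WT Treg replicate 1 (adjusted p = 0.0514) or 3 (0.0669) and without DKO Treg replicate 2 (0.0525), with log2 fold changes of -1.13 to -0.70 throughout. CD4+Foxp3- cells measured 656, 566 and 684 CPM in WT, against 643, 322 and 479.6 CPM in DKO, which overlapped (-0.40 ± 0.24 (SE), adjusted p = 0.409). Treg cells were lower than CD4+Foxp3- cells in WT (-0.80 ± 0.24 (SE), adjusted p = 0.0411) and in DKO (-1.33 ± 0.25 (SE), adjusted p = 0.00231). The call in DKO held under every alternative. That in WT was lost without any 1 of the 6 WT libraries (adjusted p = 0.0684 to 0.144) and without DKO CD4+Foxp3- replicate 3 (0.0505), as it was with a robust prior (0.09).

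Ccr7 in spleen and pLNs measured 368 and 381 CPM in WT Treg cells and 186 and 319 in DKO Treg cells, with 607 and 699 CPM in WT CD4+Foxp3- cells and 239 and 514 CPM in DKO CD4+Foxp3- cells. Within each cell type the DKO libraries lay below the WT libraries, with differences of -0.57 ± 0.32 (SE), adjusted p = 0.342 in Treg cells and -0.79 ± 0.32 (SE), adjusted p = 0.303 in CD4+Foxp3- cells, neither called. The latter reached -1.45 (adjusted p = 0.00151) without the DKO CD4+Foxp3- replicate 2 and -0.35 (adjusted p = 1) without replicate 1. Treg cells of WT mice were lower than CD4+Foxp3- cells in each library (-0.80 ± 0.32 (SE), adjusted p = 0.259), which was called without DKO CD4+Foxp3- replicate 1 (0.0164) or 2 (0.02) with the replicate block within genotype (0.0372) and with only the 2 groups in the fit (2.55e-24). In DKO mice the difference of -0.58 ± 0.32 (SE) (adjusted p = 0.469) became -1.03 (0.0115) without CD4+Foxp3- replicate 1 and 0.08 (0.933) without replicate 2.

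Ccr4 is the receptor for Ccl17 and Ccl22 found on skin-homing, Th2 and many Treg cells. It was called higher in Treg than in CD4+Foxp3- cells except in DKO spleen and pLNs, and rose in the CD4+Foxp3- cells of DKO mLN. The gene lies at chr9:114399434-114405662 on the minus strand. In mLN it measured 156, 179 and 156 CPM in WT Treg cells and 24.9, 39.2 and 33.2 CPM in WT CD4+Foxp3- cells, a 5.03-fold difference (log2 fold change 2.33 ± 0.35 (SE), adjusted p = 0.000694). DKO Treg cells measured 184, 199.9 and 182 CPM, slightly above every WT Treg library, and did not differ by the test (0.21 ± 0.33 (SE), adjusted p = 0.708, 95% interval -0.51 to 0.92). DKO CD4+Foxp3- cells measured 40.6, 153 and 66.5 CPM. All of these exceeded the WT libraries, replicate 2 by the most, and the rise was 2.67-fold (log2 fold change 1.42 ± 0.35 (SE), adjusted p = 0.0398). The adjusted p of this rise ran from 0.000721 to 0.209 over the alternatives. Without DKO CD4+Foxp3- replicate 2 the log2 fold change fell to 0.73 (adjusted p = 0.0439), and without replicate 1 it was 1.76 (0.000721). The call failed without each WT CD4+Foxp3- library (0.172, 0.102 and 0.131 for replicates 1 to 3), without each WT Treg library (0.0598 to 0.07) and without DKO Treg replicate 3 (0.0539). It also failed with a robust prior (0.117) and with only these 2 groups in the fit (0.209). In the same DKO libraries, replicates 1 to 3, the Treg markers summed to 216, 418 and 295 CPM, above the 164 to 171 CPM of WT, and the plasma cell markers to 78.4, 708 and 128 CPM against 61.9 to 71.7 CPM. Replicate 2 was the highest for Ccr4 and for both sums, while Foxp3 itself lay at 2.75, 0.211 and 1.33 CPM in replicates 1 to 3, the lowest in replicate 2. The B cell markers summed to 10.02 to 22.2 CPM in these DKO libraries and 5.69 to 7.02 CPM in WT, with Cr2 at 0 in both and no overlap. The part of these cells in the Ccr4 and Ccr9 changes of CD4+Foxp3- cells was not tested. In DKO mLN, Treg cells remained higher by 1.12 ± 0.34 (SE), adjusted p = 0.0352, a call lost under 8 of the 12 omissions of 1 library (every DKO library but CD4+Foxp3- replicate 2, WT Treg replicates 1 and 3, and WT CD4+Foxp3- replicate 3), with log2 fold changes from 0.75 without CD4+Foxp3- replicate 1 to 1.78 without replicate 2 and adjusted p up to 0.122. It was also lost with a robust prior (0.0942) and with only these 2 groups in the fit (0.17).

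The Treg cells of spleen and pLNs held Ccr4 at 158 and 145 CPM in WT mice and at 125 and 153 CPM in DKO mice, which overlapped (-0.12 ± 0.17 (SE), adjusted p = 0.718). The sign of that small difference turned with the scale: on log2(TPM + 1) it was 0.20, where the median of all expressed genes was shifted by 0.28. CD4+Foxp3- cells measured 76.0 and 65.6 CPM in WT mice, against 134 and 109 CPM in DKO mice. Both DKO libraries were higher, and the difference was 0.78 ± 0.17 (SE), adjusted p = 0.0651 by edgeR, with an adjusted p of 0.00566 by DESeq2 and of 0.00157 without DKO replicate 2. DKO CD4+Foxp3- replicate 1, the higher for Ccr4, was also the lower of its pair for Ccr2, Ccr7, Ccr9, Ccr10, Cxcr3 and Cxcr6 and the higher for Ccr6 and Cxcr4. Its Treg markers summed to 757 CPM, against 318 CPM in replicate 2 and 287 to 342 CPM in WT, with Foxp3 itself at 0.251 and 0.741 CPM in DKO replicates 1 and 2. The plasma cell markers summed to 327 and 127 CPM in these replicates and 87.6 to 93.4 CPM in WT (Tnfrsf17 at 0). The myeloid markers summed to 106 and 42.0 CPM, against 34.6 to 45.8 CPM in WT (Cd14 and Clec9a at 0), and the B cell markers to 47.7 and 25.3 CPM, against 14.1 to 17.1 CPM in WT (Cr2 and Ebf1 at 0). All 4 sums were highest in DKO replicate 1, and their part in the receptor levels of these cells was not tested. Treg cells exceeded CD4+Foxp3- cells in WT (1.10 ± 0.17 (SE), adjusted p = 0.0032), a call that was lost without WT Treg replicate 1 (0.0889) or CD4+Foxp3- replicates 1 (0.0505) or 2 (0.122). In DKO the cell types overlapped (0.20 ± 0.17 (SE), adjusted p = 0.697).

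Ccr10, the other skin-homing receptor, which binds Ccl27 and Ccl28, was near the limit of detection in mLN. The gene lies at chr11:101034311-101036757 on the minus strand. It had 3, 3 and 4 counts in WT Treg libraries, 0, 3 and 0 in DKO Treg libraries, 4, 6 and 2 in WT CD4+Foxp3- libraries and 6, 8 and 9 in DKO CD4+Foxp3- libraries. In the DKO cells edgeR called it lower in Treg cells (adjusted p = 0.026). The summed counts were 23 in CD4+Foxp3- cells and 3 in Treg cells, a ratio of CPM of 8.11 (exact 95% interval 2.45 to 42.2, counting error only). The call was lost with the replicate block within genotype (0.0654), with only these 2 groups in the fit (0.133) and without DKO Treg replicates 1 (0.0761) or 3 (0.0691) or CD4+Foxp3- replicate 3 (0.0741). The comparison of DKO with WT Treg cells, with 3 against 10 counts in all, was not called (adjusted p = 0.178) except without DKO Treg replicate 2, which left DKO with 0 counts (0.0234). DKO and WT CD4+Foxp3- cells differed by 0.94 ± 0.67 (SE), adjusted p = 0.493. Between the WT cell types the difference was -0.13 ± 0.73 (SE), or 0.00991 on log2(TPM + 1), so that it had no stable sign.

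Ccr10 was better covered in spleen and pLNs, at 3.30 and 3.13 CPM in WT Treg cells, 0.515 and 0.956 in DKO Treg cells, 7.52 and 9.81 in WT CD4+Foxp3- cells and 3.77 and 9.41 in DKO CD4+Foxp3- cells. Both DKO Treg libraries lay well below both WT Treg libraries, the largest fold difference of the set between DKO and WT in this tissue (-2.13 ± 0.50 (SE), adjusted p = 0.0546). It narrowly missed the threshold in edgeR and passed it in DESeq2 (0.018), with the replicate block (0.0489), with only the 2 groups in the fit (0.0168) and without DKO Treg replicate 2 (0.0465) or CD4+Foxp3- replicates 1 (0.00142) or 2 (0.00252). The DKO CD4+Foxp3- libraries fell on either side of the lower WT value (-0.40 ± 0.42 (SE), adjusted p = 0.802), and without replicate 2 the difference was -1.20 and called (0.0354). Treg cells were lower than CD4+Foxp3- cells in DKO (-3.16 ± 0.49 (SE), adjusted p = 0.00357), a call lost without DKO Treg replicate 1 (0.108) and with only these 2 groups in the fit (0.0571). In WT the difference was -1.43 ± 0.44 (SE), adjusted p = 0.11, called without DKO CD4+Foxp3- replicate 1 (0.00328) or 2 (0.00616) and with only the 2 groups in the fit (1.49e-10).

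Ccr6, the receptor for Ccl20 found on Th17 cells and effector Treg cells, was higher in Treg than in CD4+Foxp3- cells in both tissues and both genotypes. The gene lies at chr17:8429077-8449992 on the plus strand. In mLN it measured 54.4, 57.1 and 49.8 CPM in WT Treg cells and 9.79, 8.10 and 11.2 CPM in WT CD4+Foxp3- cells (5.58-fold, log2 fold change 2.48 ± 0.50 (SE), adjusted p = 0.0046). DKO Treg cells measured 70.0, 18.5 and 22.4 CPM and DKO CD4+Foxp3- cells 21.0, 5.63 and 9.28 CPM. In each DKO group replicate 1 was far above the others, and Treg against WT Treg cells gave -0.54 ± 0.45 (SE), adjusted p = 0.457. Without DKO Treg replicate 1 that comparison was -1.39 and called lower (adjusted p = 0.0248). The CD4+Foxp3- cells of DKO and WT differed by 0.30 ± 0.51 (SE), adjusted p = 0.806, and by -0.38 without DKO replicate 1. Treg cells of DKO mLN were higher than CD4+Foxp3- cells (1.64 ± 0.48 (SE), adjusted p = 0.0329), a call lost without DKO Treg replicate 1 (0.78, 0.193), without DKO CD4+Foxp3- replicates 2 (0.0526) or 3 (0.107) and, narrowly, without WT Treg replicate 3 (0.0523) or WT CD4+Foxp3- replicate 1 (0.0502). It was also lost with a robust prior (0.0927) and with only these 2 groups in the fit (0.181). Without DKO CD4+Foxp3- replicate 1 it was 2.30 (0.00617).

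Ccr6 in spleen and pLNs measured 49.4 and 44.0 CPM in WT Treg cells, 25.7 and 36.2 in DKO Treg cells, 7.75 and 5.95 in WT CD4+Foxp3- cells and 9.61 and 8.08 in DKO CD4+Foxp3- cells. All 4 groups stood apart, with Treg cells 6.81-fold higher in WT (log2 fold change 2.77 ± 0.23 (SE), adjusted p = 4.75e-05) and 3.49-fold higher in DKO (1.80 ± 0.22 (SE), adjusted p = 0.000717). Both calls held under every alternative run. DKO Treg cells lay below WT Treg cells (-0.59 ± 0.21 (SE), adjusted p = 0.141) and DKO above WT CD4+Foxp3- cells (0.37 ± 0.23 (SE), adjusted p = 0.566), and neither passed the test. The former was called without DKO Treg replicate 2 (0.0415) or DKO CD4+Foxp3- replicates 1 (0.0418) or 2 (0.0475).

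**Figure D4:**
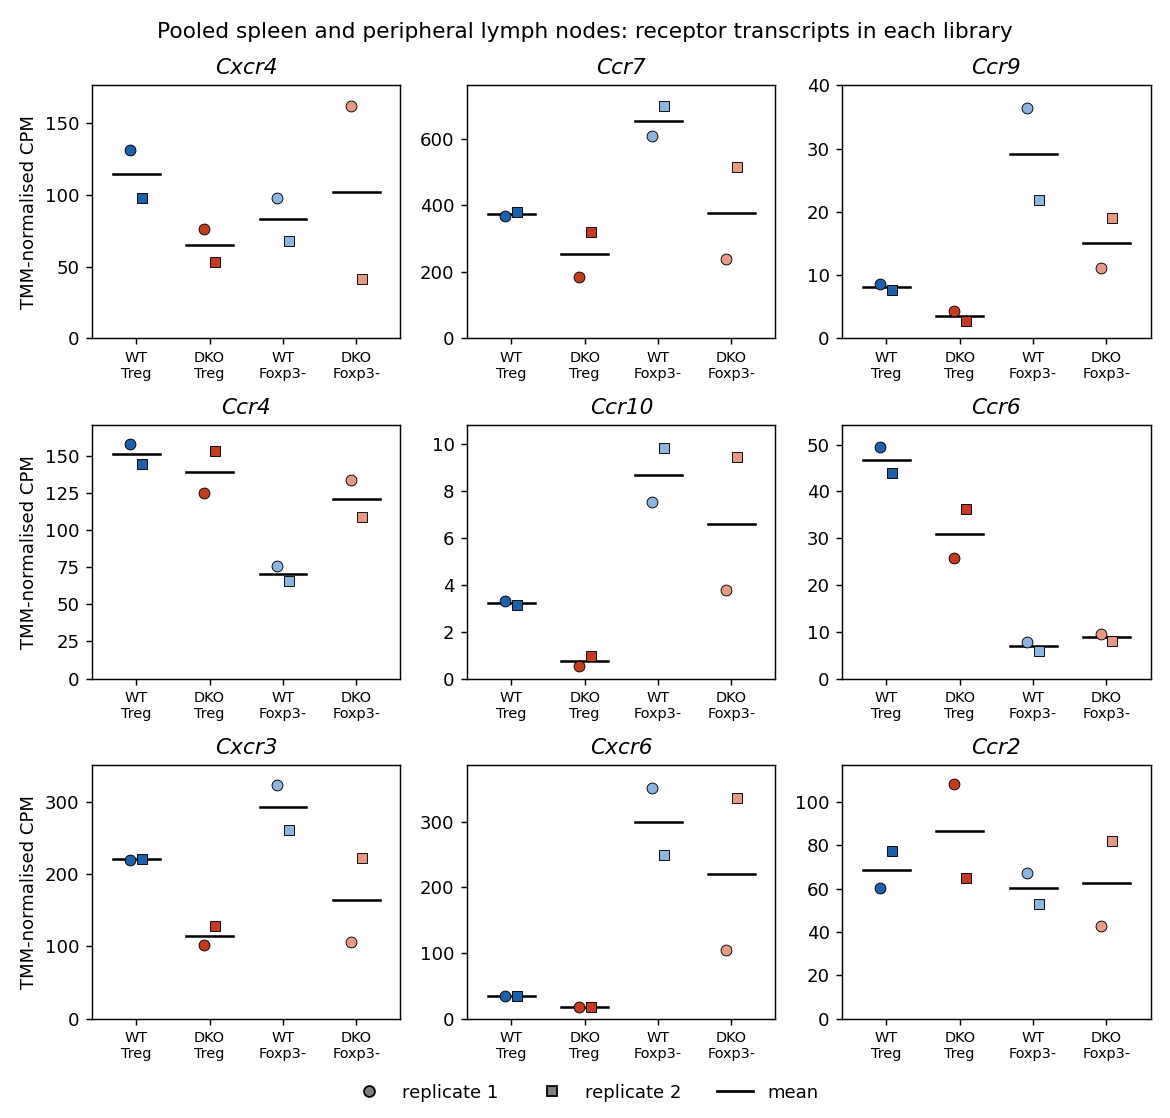
TMM-normalised CPM of each receptor is plotted for every library of pooled spleen and pLNs by group, on linear axes from 0 that differ between panels, with marker shapes for replicate numbers and bars for group means (n = 2). Cxcr6 and Ccr9 lie lower and Ccr6 higher in Treg than in CD4+Foxp3- cells, and the DKO CD4+Foxp3- replicates lie far apart for Cxcr4, Cxcr6 and Ccr7.

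Cxcr3, the receptor for the interferon-induced chemokines Cxcl9 and Cxcl10 and a marker of Th1-type cells, lies at chrX:98926874-98929608 on the minus strand. In mLN it measured 46.6, 56.9 and 53.8 CPM in WT Treg cells, 47.6, 43.1 and 45.1 in DKO Treg cells, 39.1, 45.2 and 47.0 in WT CD4+Foxp3- cells and 62.1, 29.3 and 57.0 in DKO CD4+Foxp3- cells. Neighbouring groups in the order of means overlapped, and no mLN comparison was called, the DKO difference being -0.21 ± 0.20 (SE), adjusted p = 0.515 in Treg cells and 0.17 ± 0.21 (SE), adjusted p = 0.682 in CD4+Foxp3- cells. In DKO mLN, Treg against CD4+Foxp3- cells gave -0.12 ± 0.20 (SE) on the fitted scale and 0.17 on log2(TPM + 1), where the median of all genes was shifted by 0.22. Treg cells of spleen and pLNs measured 220.0 and 221 CPM in WT mice and 101 and 128 CPM in DKO mice. The DKO libraries were lower (1.92-fold, log2 fold change -0.94 ± 0.28 (SE), adjusted p = 0.0939), not called, and called without DKO CD4+Foxp3- replicate 1 (0.00118) or 2 (0.00159) and with only the 2 groups in the fit (0.00644). CD4+Foxp3- cells measured 323 and 261 CPM in WT mice, against 105 and 222 CPM in DKO mice, again lower in both DKO libraries (-0.83 ± 0.28 (SE), adjusted p = 0.199), and called without DKO replicate 2 (-1.47, 0.000128). Without replicate 1 it was -0.40 (0.93). Treg and CD4+Foxp3- cells there differed by -0.41 ± 0.28 (SE), adjusted p = 0.634 in WT and by -0.52 ± 0.28 (SE), adjusted p = 0.455 in DKO. The latter was called without DKO CD4+Foxp3- replicate 1 (-0.96, 0.00247) and turned to 0.12 without replicate 2.

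Cxcr6, the receptor for Cxcl16 carried by activated and tissue-resident lymphocytes, lies at chr9:123715595-123720872 on the plus strand. In mLN it measured 60.8, 58.4 and 51.1 CPM in WT Treg cells and 18.8, 42.1 and 40.8 CPM in DKO Treg cells. Every DKO library was lower, replicate 1 by the most, and the difference of -0.74 ± 0.30 (SE), adjusted p = 0.102 was not called, and was called without DKO CD4+Foxp3- replicate 2 (0.0248) or with only these 2 groups in the fit (0.0452). Without DKO Treg replicate 1 it was -0.45 (0.277). CD4+Foxp3- cells measured 28.0, 45.5 and 41.2 CPM in WT, against 37.9, 58.8 and 27.3 CPM in DKO, which overlapped (0.11 ± 0.30 (SE), adjusted p = 0.904). WT Treg cells lay above WT CD4+Foxp3- cells without a call (0.57 ± 0.30 (SE), adjusted p = 0.252), and the DKO cell types overlapped (-0.29 ± 0.30 (SE), adjusted p = 0.539). The cell types of spleen and pLNs were far apart in the other direction. There Cxcr6 measured 34.0 and 34.1 CPM in WT Treg and 351 and 249 CPM in WT CD4+Foxp3- cells, 8.81-fold lower in Treg cells (log2 fold change -3.14 ± 0.41 (SE), adjusted p = 0.000971). In DKO it measured 17.6 and 17.1 CPM in Treg and 104 and 336 CPM in CD4+Foxp3- cells, 12.6-fold lower in Treg cells (-3.66 ± 0.43 (SE), adjusted p = 0.000508). These calls were lost only without replicate 1 of the Treg group compared, by a small margin (adjusted p = 0.0514 in WT and 0.057 in DKO), and with a robust prior (0.0799 and 0.0602). Without DKO CD4+Foxp3- replicate 1 the DKO difference was -4.27 (1.52e-08) and without replicate 2 it was -2.58 (1.83e-06).

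Between genotypes, Cxcr6 of spleen and pLNs was lower in both DKO Treg libraries (-0.97 ± 0.40 (SE), adjusted p = 0.196), not called, and called without DKO CD4+Foxp3- replicate 1 (0.00191) or 2 (0.00258) and with only the 2 groups in the fit (0.0067). In CD4+Foxp3- cells DKO replicate 1 was below and replicate 2 within the range of WT (-0.45 ± 0.38 (SE), adjusted p = 0.709). Without replicate 2 the difference was -1.53 and called (0.000123), and without replicate 1 it was 0.16. The CD8 and NK markers, which mark cells that also carry Cxcr6, summed to 25.2 to 28.3 CPM in WT Treg cells of this tissue, 117 and 78.5 in WT CD4+Foxp3- replicates 1 and 2 (Klra8 at 0), 104 to 132 in DKO Treg cells and 222 and 123 in DKO CD4+Foxp3- replicates 1 and 2 (Klra8 at 0). Their part in the Cxcr6 levels was not tested.

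Ccr2, the receptor for Ccl2 that monocytes and effector T cells follow into inflamed tissue, had the largest fold difference between the cell types of WT mLN. The gene lies at chr9:124016689-124028296 on the plus strand. The mapping kept at most 1 position per read, so its values are uncertain as far as reads fit more than 1 gene. In mLN Ccr2 measured 139.7, 102 and 103 CPM in WT Treg and 7.40, 9.45 and 7.58 CPM in WT CD4+Foxp3- cells, 14.0-fold higher in Treg cells (log2 fold change 3.81 ± 0.41 (SE), adjusted p = 5.76e-05). In DKO it measured 51.9, 197 and 193 CPM in Treg and 14.5, 19.6 and 17.9 CPM in CD4+Foxp3- cells, 8.49-fold higher (3.09 ± 0.39 (SE), adjusted p = 0.000182). Both calls held under every alternative. DKO Treg replicate 1 was below the WT Treg libraries and the others above them (0.36 ± 0.35 (SE), adjusted p = 0.511), and without it the rise of 0.77 was called (0.00557). The CD4+Foxp3- cells of DKO mLN exceeded the WT libraries (1.08 ± 0.41 (SE), adjusted p = 0.168). This was not called by edgeR and was called by DESeq2 (0.0423) and without DKO Treg replicate 1 (0.00611). The myeloid markers, which mark cells that also carry Ccr2, summed to 46.0, 48.9 and 107 CPM in DKO Treg replicates 1 to 3, against 22.4 to 26.8 CPM in WT Treg cells. Their part in the Ccr2 levels was not tested.

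Ccr2 in spleen and pLNs measured 60.0 and 77.1 CPM in WT Treg cells, 108 and 64.6 in DKO Treg cells, 67.1 and 53.1 in WT CD4+Foxp3- cells and 42.9 and 82.1 in DKO CD4+Foxp3- cells. Neighbouring groups in the order of means overlapped. No comparison of Ccr2 was called there, with Treg against CD4+Foxp3- cells at 0.19 ± 0.30 (SE), adjusted p = 0.865 in WT (95% interval -0.45 to 0.83). In DKO the difference was 0.47 ± 0.29 (SE), adjusted p = 0.55, called without DKO CD4+Foxp3- replicate 2 (1.01, 0.0351). DKO and WT differed by 0.33 ± 0.29 (SE), adjusted p = 0.58 in Treg cells and by 0.05 ± 0.30 (SE), adjusted p = 1 in CD4+Foxp3- cells.

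Other genes of cell migration were counted over whole lists, beside the shares of all genes called in mLN Treg cells, 8.5% up and 3.43% down. Of the 14 other chemokine receptors measured, 3 rose and 1 fell in DKO Treg cells of mLN (median log2 fold change 0.25). Cx3cr1, the fractalkine receptor of myeloid, NK and effector T cells, stood at 26.0 against 0.384 CPM, log2 fold change 6.06 ± 0.99 (SE), adjusted p = 0.00133. Ccr1, a receptor of inflammatory chemokines, stood at 25.3 against 3.04 CPM, log2 fold change 3.05 ± 0.60 (SE), adjusted p = 0.00385, and Ccr3, the eotaxin receptor, at 10.02 against 2.58 CPM, log2 fold change 1.96 ± 0.61 (SE), adjusted p = 0.0387. The receptor that fell, Xcr1, was low in both groups (0.557 against 1.78 CPM, log2 fold change -1.65 ± 0.43 (SE), adjusted p = 0.0168). The CD8, NK and myeloid marker sums given above rose in the same libraries, and their part was not tested. In mLN CD4+Foxp3- cells Ccrl2, a chemerin-binding receptor, rose (4.10 against 1.31 CPM, log2 fold change 1.62 ± 0.42 (SE), adjusted p = 0.0482) and Xcr1 fell (0.589 against 1.97 CPM, log2 fold change -1.75 ± 0.43 (SE), adjusted p = 0.0398), where 3.12% of all genes were called up and 0.304% down. Cx3cr1 also rose in DKO Treg cells of spleen and pLNs (8.50 against 0.568 CPM, log2 fold change 3.86 ± 0.51 (SE), adjusted p = 0.00361), where the CD8 and NK sums given above and the myeloid sums (35.2 to 42.3 CPM in WT, with Clec9a at 0, and 53.3 to 145 CPM in DKO) rose too, and 0 of the 14 were called in CD4+Foxp3- cells (1 with an unadjusted p below 0.05). Over all genes 1.74% were called in Treg and 0.819% in CD4+Foxp3- cells of this tissue, with 12.9% at an unadjusted p below 0.05 in the latter.

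Of the ligands of the 9 receptors, 12 of 19 were listed in mLN, and 1, the Ccr6 ligand Ccl20, fell in DKO Treg cells (1.73 against 8.21 CPM, log2 fold change -2.24 ± 0.59 (SE), adjusted p = 0.0182). Of 28 measured genes of receptor signalling, 1 rose and 3 fell. For these and the lists that follow, the shares over all genes in mLN Treg cells were 8.5% up and 3.43% down. Grk5, a receptor kinase, rose (20.9 against 5.71 CPM, log2 fold change 1.87 ± 0.40 (SE), adjusted p = 0.00636), and the G protein regulators Rgs10 (215 against 442 CPM, log2 fold change -1.04 ± 0.11 (SE), adjusted p = 0.000103) and Rgs1 (107 against 219.6 CPM, log2 fold change -1.04 ± 0.26 (SE), adjusted p = 0.0148) and the phosphoinositide kinase subunit Pik3r5 fell (28.3 against 48.1 CPM, log2 fold change -0.77 ± 0.22 (SE), adjusted p = 0.0273). Of 13 other trafficking receptors, 0 rose and 5 fell in DKO Treg cells of mLN, a median log2 fold change of -0.75. Itgae, the CD103 integrin chain of intestinal T cells, fell by the largest fold of the list (114 against 343 CPM, log2 fold change -1.59 ± 0.42 (SE), adjusted p = 0.0177), followed by the prostaglandin receptor Ptger4 (51.4 against 109 CPM, log2 fold change -1.08 ± 0.14 (SE), adjusted p = 0.0004) and the oxysterol receptor Gpr183 (45.4 against 92.7 CPM, log2 fold change -1.03 ± 0.18 (SE), adjusted p = 0.00184). Of 15 transcription factors tied to homing or effector programmes, 2 rose and 2 fell. Bcl6, the factor of follicular helper cells, rose (85.3 against 27.7 CPM, log2 fold change 1.62 ± 0.22 (SE), adjusted p = 0.000464), as did Batf (135 against 68.7 CPM, log2 fold change 0.98 ± 0.17 (SE), adjusted p = 0.00207), while Prdm1, which encodes Blimp-1, fell (14.2 against 35.7 CPM, log2 fold change -1.33 ± 0.31 (SE), adjusted p = 0.0092), as did Klf2, a factor of naive T cell recirculation (146 against 244 CPM, log2 fold change -0.74 ± 0.14 (SE), adjusted p = 0.00353).

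In CD4+Foxp3- cells of mLN the integrin chain gene Itga4 rose (809 against 514 CPM, log2 fold change 0.65 ± 0.16 (SE), adjusted p = 0.0361) as the only called one of 13 other trafficking receptors, and Irf4 (106 against 54.8 CPM, log2 fold change 0.95 ± 0.23 (SE), adjusted p = 0.0403) as the only called one of 15 transcription factors, beside 3.43% of all genes called (3.12% up and 0.304% down). None of the ligands and signalling genes was called there, with 1 of 12 and 12 of 28 at an unadjusted p below 0.05, which 18.7% of all genes reached. For spleen and pLNs none of these 4 lists had a call in DKO against WT Treg cells, with an unadjusted p below 0.05 for 1 of 11 ligands tested, 5 of 28 signalling genes, 2 of 13 trafficking receptors and 2 of 15 transcription factors. The shares over all genes were 20.4% there and 12.9% in CD4+Foxp3- cells, which had no call either and unadjusted counts of 1, 5, 5 and 6. DESeq2 was not counted over these lists.

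The genes whose log2 CPM followed each receptor most closely were picked by Pearson's r over the 12 mLN libraries, among genes that averaged 10 CPM or more. The libraries fall into 4 groups that share cells and genotype, so these values only describe the likeness of patterns. Ccr9 was most like Lta (r = 0.979) and Ctss (r = 0.971), encoding lymphotoxin alpha and cathepsin S. Cxcr4 was most like Gtf3c2 (r = 0.963) and Zap70 (r = 0.953), and Ccr7 most like Mllt10 (r = 0.989) and Armc8 (r = 0.986). Ccr4 was most like Fgl2 (r = 0.994) and Kif13a (r = 0.983), Ccr2 like Lilrb4a (r = 0.985) and Rad23b (r = 0.971), and Ccr6 like Gimap7 (r = 0.951) and Pdia3 (r = 0.931). The weakest matches were those of Ccr10, Cxcr3 and Cxcr6, with Ccr10 most like Ngrn (r = 0.903) and Cnot6l (r = 0.888), Cxcr3 like Txndc16 (r = 0.883) and Mrps16 (r = 0.845) and Cxcr6 like Panx1 (r = 0.873) and Asah1 (r = 0.850). Over the 8 libraries of spleen and pLNs other genes led for each receptor given here: for Ccr7 Rps29 (r = 0.994) and Rpl31 (r = 0.992), which encode ribosomal proteins, for Ccr6 Sh3bgrl2 (r = 0.991) and Il2rb (r = 0.990), and for Cxcr6 Ccdc71 (r = 0.998) and Ehd3 (r = 0.994). For Ccr9 they were Usf1 (r = 0.984) and B4galt3 (r = 0.966), for Cxcr4 5730419I09Rik (r = 0.915) and Elk1 (r = 0.909), and for Ccr4 Taf11 (r = 0.992) and Plscr1 (r = 0.991). For Ccr2 they were Tnk2 (r = 0.931) and Vps33b (r = 0.915), and for Ccr10 Snrpd3 (r = 0.989) and Sgms1 (r = 0.987).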

How the data were processed

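Per the labels and methods, TruSeq stranded mRNA libraries were mapped to mm9 with TopHat2 (2.1.1) with at most 1 hit per read and counted per RefSeq gene, reversely stranded, with featureCounts (Subread 1.4.3-p1). The authors deposited raw counts and TPM per library for each tissue. From the counts, each table was fitted in edgeR (4.0.16, R 4.3.3) with TMM, 4 groups in 1 quasi-likelihood model, genes with a total of at least 1 count, and p-values adjusted by Benjamini-Hochberg over all genes tested (16784 in mLN, 16357 in spleen and pLNs). DESeq2 (1.42.0) and the other settings are in the closing section. The biological coefficient of variation was 17.7% in mLN and 21.6% in spleen and pLNs. The scripts were tested on simulated data. The deposited TPM served to compare levels between receptors, and as a scale check with a pseudocount of 1. No 2 libraries of a group agreed within sampling noise. Same-numbered mLN Treg and CD4+Foxp3- libraries of a genotype deviated together in all 6 pairs (r = 0.11 to 0.39), which is the only source of their pairing, since the labels do not state it. Same-numbered mLN libraries of different genotypes cannot share a mouse. They gave r = -0.017 to 0.0855 for Treg cells and 0.0197 to 0.114 for CD4+Foxp3- cells, so the lowest pair did not exceed them. With 2 numbers in spleen and pLNs the correlation was 0.213 in WT and 0.336 in DKO, whose cell types came from the same mice, and between genotypes it was 0.188 for Treg and 0.221 for CD4+Foxp3- cells. The members and gene lists were chosen with earlier results of these data known. All 9 receptors are named, and of the other lists at most the 3 called genes of largest change per direction. The likeness of patterns for Cxcr3 in spleen and pLNs is not reported here. Where the labels do not say that libraries came from separate mice, p-values measure the spread between libraries.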

Additional observations from a re-analysis of the deposited data

Results flagged for a closer look

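Of 36 receptor comparisons set side by side between the tissues, 3 had groups that did not overlap in either tissue and differences of opposite sign. The share of all genes that meets the same rule was not counted. Groups this small often do not overlap, with 4 to 7 of the 9 receptors apart in each comparison. The difference between the tissues was not tested, since each table stood on its own. Cxcr4 in DKO against WT Treg cells had a log2 fold change of 0.96 in mLN and -0.82 in spleen and pLNs, the latter not called. Ccr9 in Treg against CD4+Foxp3- cells of WT mice stood at 1.99 in mLN and -1.84 in spleen and pLNs, and both passed the test. Cxcr6 in the same comparison stood at 0.57 in mLN, not called, and -3.14 in spleen and pLNs.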

How the results depend on the processing

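In mLN Treg cells Ccr9 and Cxcr4 kept their direction and call in every setting run. Counts of receptors called moved as follows, and the cause was not tested except where fewer libraries entered. DKO against WT CD4+Foxp3- cells of mLN, with 2 called, gave 1 with DESeq2 size factors, 1 with filterByExpr and 1 with the replicate block (Ccr4 in each), and 0 with a robust prior and 0 with only the 2 groups in the fit. Treg against CD4+Foxp3- cells of DKO, with 5 called in mLN and 4 in spleen and pLNs, gave 3 in mLN with a robust prior, and 2 and 2 with only the 2 groups. For spleen and pLNs, where 0 were called, DKO against WT Treg cells gave 1 in DESeq2, 1 with the replicate block (Ccr10 in both) and 5 with only the 2 groups, and CD4+Foxp3- cells gave 1 in DESeq2. Leaving out replicate 1 of both DKO groups together, chosen after seeing the data, gave 5 in mLN Treg cells, 4 in mLN CD4+Foxp3- cells, 3 between the DKO cell types of mLN, 5 in Treg and 3 in CD4+Foxp3- cells of spleen and pLNs, and 3 for the interaction there (Ccr4, Ccr10 and Cxcr6). Leaving out replicate 2 of both, likewise chosen, whose mLN CD4+Foxp3- library lay farthest from the others of its group, gave 5, 2 (Ccr4 and Ccr9), 6, 7, 7 and 8 in the same order, and 2 for the mLN interaction (Ccr9 and Cxcr3). Leaving out that CD4+Foxp3- library alone gave 1 (Ccr4) in mLN CD4+Foxp3- cells. Either joint omission left each DKO group of spleen and pLNs with 1 library, so the counts there are not read as calls. The shares of all genes called are not set beside these receptor counts. Calls over all genes, given below for the mLN interaction and mLN CD4+Foxp3- cells, were higher than in the main fit. These receptor counts therefore cannot tell a change of the receptors from a fit that called more of all genes.

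Leaving out 1 library at a time gave 2 to 5 receptors in mLN and 0 to 6 in spleen and pLNs for DKO against WT Treg cells, 0 to 3 and 0 to 7 for CD4+Foxp3- cells, 2 to 5 and 1 to 6 between the DKO cell types, 1 to 6 between the WT cell types of spleen and pLNs, and 0 to 2 and 0 to 2 for the interaction. A group left with 1 library was assumed to vary like the others. Log2 fold changes that changed sign were those of receptors not called: in DKO against WT CD4+Foxp3- cells of mLN -0.38 to 0.67 for Ccr6, -0.0219 to 0.46 for Cxcr3 and -0.22 to 0.34 for Cxcr6, and of spleen and pLNs -0.49 to 0.45 for Ccr2, -1.20 to 0.12 for Ccr10, -1.003 to 0.97 for Cxcr4 and -1.53 to 0.16 for Cxcr6. In DKO against WT Treg cells of spleen and pLNs they were -0.0888 to 0.65 for Ccr2 and -0.27 to 0.0171 for Ccr4. Between the cell types they were -0.37 to 0.0966 for Ccr10 in WT mLN, -0.43 to 0.0490 for Cxcr3 and -0.51 to 0.0225 for Cxcr6 in DKO mLN, -0.00203 to 0.37 for Ccr2 in WT spleen and pLNs, and -1.03 to 0.0806 for Ccr7, -0.96 to 0.12 for Cxcr3 and -1.32 to 0.65 for Cxcr4 in DKO spleen and pLNs.

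With the replicate block within genotype, the pairing of the mLN cell types gave 5 receptors in WT and 5 in DKO, where Ccr9 entered and Ccr10 left, and changed no other call in mLN. In spleen and pLNs, where the DKO cell types came from the same littermates and the labels do not say that a number marks a mouse, it gave 4 in WT (Ccr7 in, Ccr9 out) and 3 in DKO (Ccr9 out). On log2(TPM + 1) no called receptor changed sign, while the median of all genes shifted by up to 0.28. Sizes did change: 20 receptor differences moved by more than the SD between libraries and 52 did not. The called Ccr10 difference between the DKO cell types of mLN went from -2.89 to -0.61. Ccr9 in DKO against WT Treg cells of spleen and pLNs, not called, went from -1.18 to -0.57. Over all genes, counts that moved by over 1.5 times were, for DKO against WT Treg cells, 2001 in mLN (3249 without a fold minimum) and 285 in spleen and pLNs (648 in DESeq2, 1256 with 2 groups, 24 with filterByExpr, 114 with a robust prior). For CD4+Foxp3- cells they were 575 in mLN (929 in DESeq2, 2 with 2 groups, 323 with a robust prior) and 134 in spleen and pLNs (376, 1 and 19 likewise, 1 with filterByExpr). With 2 groups in the fit the cell types gave 2544 for 1687 in WT and 906 for 1885 in DKO mLN (2956 without a fold minimum), and 2060 for 654 and 190 for 617 in spleen and pLNs, where filterByExpr gave 379 and 342 and the block within genotype 360 and 348. The interaction gave 409 in DESeq2 and 118 with that block for 47 in mLN, and 0 to 11 for 1 in spleen and pLNs. With replicates 1 or 2 of both DKO groups left out it gave 283 and 538 in mLN, and DKO against WT CD4+Foxp3- cells gave 1536 and 581 there. Depth limits Ccr10 in mLN, where no library held more than 9 of its counts.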
